A study of Mus musculus with 48 samples.

Results

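The AP-1 and EGR families of immediate early transcription factors were followed, as 10 genes, through 4 regions of the mouse brain after spaceflight. They were chosen by name, as the Fos, Jun and Egr genes with a row in the normalized expression tables of all 4 regions: Fos, Fosb, Fosl2, Jun, Junb, Jund, Egr1, Egr2, Egr3 and Egr4, that is 10 of 15782 genes. The samples came from 12 male C57BL/6 mice, 10 weeks old at launch, in 4 groups of 3. FLT-SAL mice spent 35 days on the International Space Station with weekly saline, and FLT-BuOE mice flew with weekly BuOE. GC-SAL and GC-BuOE mice were the ground controls on saline and on BuOE, run 3 days behind the flight. BuOE is MnTnBuOE-2-PyP5+, a manganese porphyrin that mimics superoxide dismutase. It was injected under the skin at 1 mg/kg in 0.2 mL, starting 7 days before launch. The flown animals were in the laboratory no later than 20 h after splashdown, so every flight value was also taken after return to gravity. All mice carried the same strain background and no engineered allele.

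In each mouse 1 area of illumination (AOI) was captured by GeoMx digital spatial profiling in the Cornu Ammonis (CA, labelled as its field 1), the dentate gyrus (DG), the frontal cortex (FCT) and the cortex (CT), giving 48 AOIs. An AOI held 140 to 640 nuclei and 322629 to 1579380 deduplicated counts (median 652040). The AOIs of a group lay on 1 slide, so group and slide cannot be told apart. The FLT-SAL AOIs were the deepest (median 991426 counts, against 548888 to 639735 in the other groups). Values are Q3-normalized counts, scaled by the authors to a common upper quartile, so they are relative levels within an AOI, and a change in the number of expressing cells cannot be told apart from a change per cell. Each gene was read by 1 probe, so levels of different genes are given as multiples of the negative-control probes, which stood at 9.24 to 20.9 (median 14.4). The labelled regions were checked on marker genes: all 5 CA1 pyramidal markers were lower in DG than in CA, and 4 of 6 dentate granule markers were higher.

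Immediate early genes are transcribed within minutes of synaptic activity or growth factor signals, without new protein synthesis. Calcium and MAP kinase signals reach them through CREB, serum response factor and its ETS partners. Fos and Jun proteins form the AP-1 dimer, a leucine zipper factor that binds TGANTCA, and Jun proteins can also pair with each other. The Egr proteins are zinc finger factors that bind GC-rich sites, and Egr1, Egr2 and Egr3 are held back by the corepressors Nab1 and Nab2. In hippocampus and cortex both families are used as marks of recent neuronal activity, and Egr1 and Egr3 take part in long-term synaptic plasticity.

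Junb, Jun and Fos are represented by the 250 bases before their RefSeq start sites (GRCm38.p6), because Junb carried the clearest difference between groups, Jun the clearest rise in DG, and Fos is the best known of the family. Junb lies at chr8:84978749-84978998 (minus strand), Jun at chr4:95052223-95052472 (minus strand) and Fos at chr12:85473640-85473889 (plus strand). Capitals mark the CRE half-site TGACG on either strand and the TATA motif TATAAA; the window of Jun holds neither.
Junb: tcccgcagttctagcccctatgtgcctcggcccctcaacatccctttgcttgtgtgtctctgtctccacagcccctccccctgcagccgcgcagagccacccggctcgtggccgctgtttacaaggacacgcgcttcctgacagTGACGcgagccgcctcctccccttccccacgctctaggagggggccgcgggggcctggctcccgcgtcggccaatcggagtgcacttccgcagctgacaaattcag
Jun: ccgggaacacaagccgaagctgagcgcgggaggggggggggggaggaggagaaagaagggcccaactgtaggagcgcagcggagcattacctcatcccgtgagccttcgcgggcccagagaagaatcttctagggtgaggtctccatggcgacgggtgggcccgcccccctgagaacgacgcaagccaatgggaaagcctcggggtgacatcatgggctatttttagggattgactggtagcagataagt
Fos: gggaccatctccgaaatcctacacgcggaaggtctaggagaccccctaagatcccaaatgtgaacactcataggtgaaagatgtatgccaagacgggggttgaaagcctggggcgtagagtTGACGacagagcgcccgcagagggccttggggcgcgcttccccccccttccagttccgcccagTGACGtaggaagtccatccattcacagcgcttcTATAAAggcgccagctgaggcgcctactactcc
Windows were at hand for 8 of the 10 genes, all but Egr1 and Egr3. The half-site TGACG, the core of the element that CREB binds and part of the full CRE TGACGTCA, was found in 4 of 8 (Fos, Fosb, Junb and Egr4) and in 17.9% of 27025 windows of the same length, 1 per gene at its first listed start. It was searched after the windows had been read. In Junb it began 106 bases before the start and in Fos 129 and 66 bases before it. The EGR site GCGNGGGCG was found in Fosb and Fosl2, 2 of 8 against 4.65% of all windows. The full CRE TGACGTCA (1.62% of all windows), the AP-1 site TGANTCA (6.87%) and the CArG box bound by serum response factor (1.40%) were in none of the 8. TATAAA, 33 bases before the start of Fos, was in 1 of 8 and in 13.0% of all windows. Both strands were read for every motif, and a match is a match of letters only. Near matches and sites outside the window were not counted. In the GENCODE annotation Jund starts at 70698949, beyond the end of its window at 70697738. Fosl2 starts there at 32135801, so its window, from 32136222, lies inside the gene.

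The genes fell into a group well above the negative control and a group close to it. Over the 48 AOIs Jund stood at 13.4 times the negative control, Egr1 at 6.93, Egr3 at 6.87, Junb at 4.80 and Jun at 3.21. Fosl2 (2.46 times), Fosb (2.08), Egr4 (1.91), Fos (1.56) and Egr2 (1.54) were low. Jun owed its place to DG (7.62 times), and stood at 1.78 in CA, 2.40 in FCT and 2.46 in CT. Fosl2 was above Jun in FCT (2.71) and CT (2.58), and below it in CA and DG. Fos, whose product pairs with Jun proteins in the AP-1 dimer, was below the negative control in 4 AOIs and rested on 8 to 72 counts an AOI. Egr2 was also below it in 4 AOIs. For these 5 low genes, and for Jun outside DG, a difference of the size seen elsewhere would be harder to detect. Their fold changes are compressed by the background left in the values.

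Jun and Egr1 differed in opposite directions between DG and CA. Jun, the central AP-1 partner, was high in DG and low in the other regions. Its mean level was 85.5 ± 15.0 (SD, n = 12 mice) in DG, 33.2 ± 11.7 in CA, 34.2 ± 5.18 in FCT and 36.4 ± 7.56 in CT. Jun was higher in DG than in CA in 12 of 12 mice, by 1.39 on the log2 scale (SE 0.11, adjusted p = 2.2e-20). The negative control was higher in CA than in DG, and with it subtracted the difference of Jun was 2.63 (adjusted p = 2.0e-14). All adjusted p-values are from limma on log2(Q3 + 1) with Benjamini-Hochberg adjustment over 15782 genes, and the region tests kept each mouse as a block. A gene was called at adjusted p below 0.05 and a difference beyond 1.5-fold.

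Egr1 ran the other way. Its level was 34.1 ± 6.76 in DG against 100.2 ± 23.1 in CA, 143.2 ± 60.1 in FCT and 130.5 ± 31.8 in CT. DG was below CA in 12 of 12 mice, by -1.52 on the log2 scale (SE 0.10, adjusted p = 3.4e-26). Hippocampus (CA and DG) was below cortex (FCT and CT) by -1.15 (SE 0.07, adjusted p = 7.0e-29). No other of the 10 genes was called between hippocampus and cortex at this fold, while 3.18% of all genes were.

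Junb, which competes with Jun for the same Fos partners, also was lower in DG, at 47.4 ± 9.77 against 76.1 ± 13.8 in CA (-0.68, SE 0.08, adjusted p = 3.4e-11, lower in 12 of 12 mice). Egr4 was lower in DG than in CA by -0.60 (SE 0.14, adjusted p = 0.00028). That value rested partly on 1 CA AOI, of FLT-BuOE mouse 1, at 128.4, and was -0.42 without that mouse. It lay close to the fold threshold, and no longer passed it without that mouse, without FLT-SAL mouse 3, GC-BuOE mouse 1 or GC-SAL mouse 1 (-0.57 to -0.55), or with a pseudocount of 5 (-0.53). The negative control also differed between these regions, as drawn in the plots by group, and with it subtracted the Egr4 difference was -0.33 (adjusted p = 0.41). In all 4 of 10 genes were called between DG and CA, Jun higher and Junb, Egr1 and Egr4 lower, where 4.1% of all genes were.

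Egr3 and Jund followed Egr1 with differences under 1.5-fold. Egr3 was 68.6 ± 9.48 in DG and 106.4 ± 38.7 in CA (-0.56, SE 0.09, adjusted p = 3.1e-07). Jund, the most constant of the Jun proteins, was lower in hippocampus than in cortex by -0.52 (SE 0.04, adjusted p = 2.2e-19), with means of 150.9 ± 25.4 in DG, 173.9 ± 16.7 in CA, 241.5 ± 26.1 in FCT and 223.3 ± 18.6 in CT. FCT and CT were not separated for any of the 10: 0 were called by limma (0.101% of all genes) and 0 by edgeR (0.12%), and 1, Junb, had an unadjusted p under 0.05 (8.62%).

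**Figure D1:**
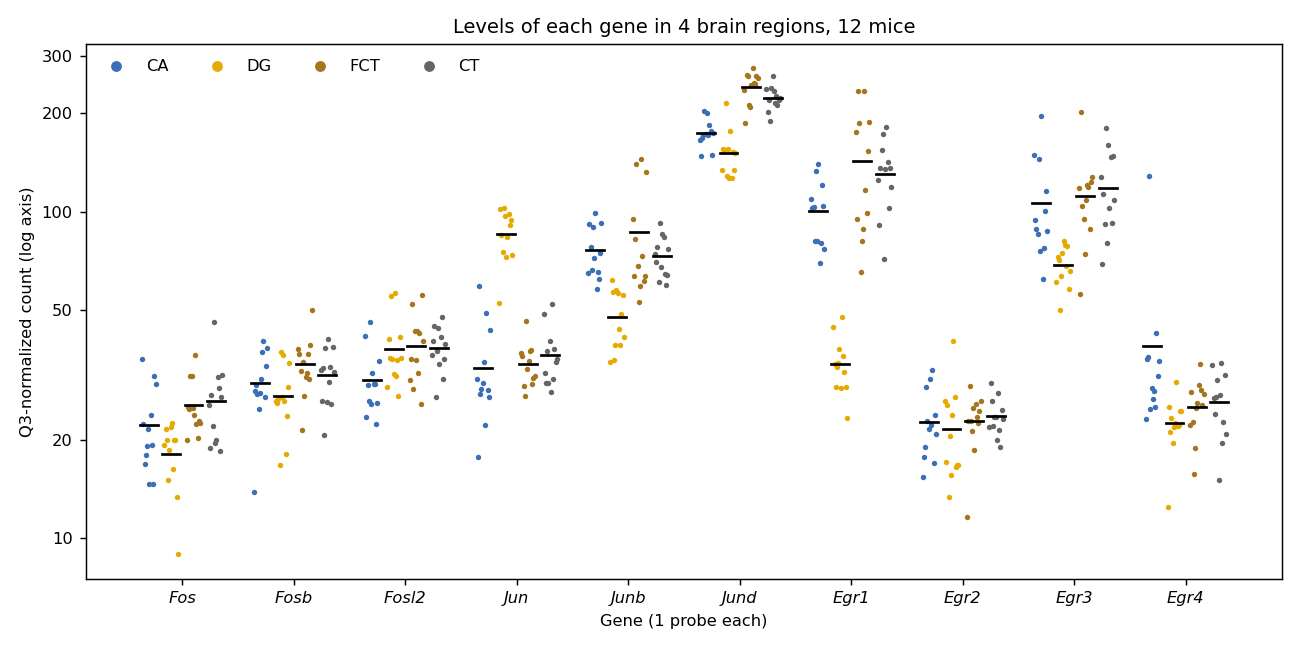
Q3-normalized counts (log axis) of each gene in each AOI, with 12 mice a region and a black bar at the mean. Jun was highest in DG (mean 85.5) and Egr1 lowest there (34.1), while Fos, Egr2 and Egr4 lay near 20 to 30 in most AOIs.

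The first comparison between groups asked what spaceflight did without treatment, FLT-SAL against GC-SAL. In CT, Egr3 fell. It was 127.3, 180.4 and 147.1 in GC-SAL mice and 69.1, 80.0 and 92.4 in FLT-SAL mice. Every flight mouse was below every ground mouse. The means were 151.6 ± 26.8 and 80.5 ± 11.6 (SD, n = 3), a difference of -0.90 on the log2 scale (SE 0.16, adjusted p = 0.0019 by limma). It was the only 1 of the 10 called in CT, where 0.0887% of all genes were called. Without FLT-SAL mouse 1 the adjusted p was 0.063.

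Egr1 moved with it in CT without passing the threshold. GC-SAL mice had 124.9, 172.8 and 141.5, and FLT-SAL mice 91.0, 71.5 and 102.6. The groups did not overlap, and the difference was -0.72 (SE 0.16, adjusted p = 0.052 by limma). On the counts its adjusted p was 0.037 by edgeR and 0.034 by DESeq2. Fos in CT was 25.5, 45.7 and 28.9 in GC-SAL mice and 18.9, 19.5 and 18.5 in FLT-SAL mice. These groups did not overlap either, but the flight values were close to the negative control (-0.74, SE 0.22, adjusted p = 0.35 by limma and 0.030 by edgeR). Fosb was the other gene whose flight values were all below the ground values, so that 4 of 10 did not overlap, against 10.4% of all genes.

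In the other regions none of the 10 was called by limma or by edgeR between FLT-SAL and GC-SAL. Of all genes, limma called 0.139% for CA, 0.266% for DG and 0.0507% for FCT, and edgeR 0.304%, 0.456% and 0.165%. At an unadjusted p under 0.05 there were 2, 1 and 2 of the 10, against 6.73%, 7.41% and 5.66% of all genes. In FCT Egr3 was 118.0, 95.0 and 118.9 in GC-SAL mice and 56.0, 74.3 and 88.1 in FLT-SAL mice. The groups were apart, and the difference was -0.61 (SE 0.18, adjusted p = 0.36). Junb in FCT was 94.8, 68.3 and 73.0 in GC-SAL mice and 63.5, 52.9 and 61.2 in FLT-SAL mice. With Jun, 3 of the 10 did not overlap in FCT, all lower in flight, against 12.1% of all genes that did not overlap either way. In DG Junb went the other way: GC-SAL mice had 34.5, 39.1 and 39.0 and FLT-SAL mice 61.5, 57.7 and 48.6 (0.56, SE 0.18, adjusted p = 0.23). Egr3 in DG was 60.7, 63.3 and 68.0 in GC-SAL mice and 72.6, 74.8 and 78.6 in FLT-SAL mice, so it stood higher in flight there, against its direction in FCT and CT (0.23, SE 0.16, adjusted p = 0.85). In DG 4 of the 10 did not overlap (Junb, Jund and Egr3 higher and Egr2 lower in flight), against 14.8% of all genes. In CA the largest difference was that of Fosl2, -0.67 (SE 0.24, adjusted p = 0.43).

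Across CA, DG, FCT and CT, the 10 genes had median differences of -0.21, 0.18, -0.24 and -0.29, where the medians of all genes were 0.02, -0.01, 0.03 and 0.01. Lower values in flight were found for 7, 4, 8 and 8 of the 10, and for 46.5%, 51.3%, 44.2% and 48.7% of all genes. Averaged over the 4 regions of each mouse, Egr3 was lower in FLT-SAL than in GC-SAL mice by -0.42 (SE 0.10, adjusted p = 0.023 by limma), below the fold threshold; this mean includes DG, where its values were higher in flight. On these mouse means 0 of the 10 were called (0.101% of all genes), and 3 had an unadjusted p under 0.05 (8.79%). Whether the flight difference varied among the regions was tested directly: Egr3 gave an adjusted p of 0.12 by limma and 0.022 by edgeR, and Junb 0.22 and 0.096, so 0 of the 10 were called by limma (0.127% of all genes; 2 of the 10 and 4.64% at an unadjusted p under 0.05) and 1 by edgeR (0.342%).

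**Figure D2:**
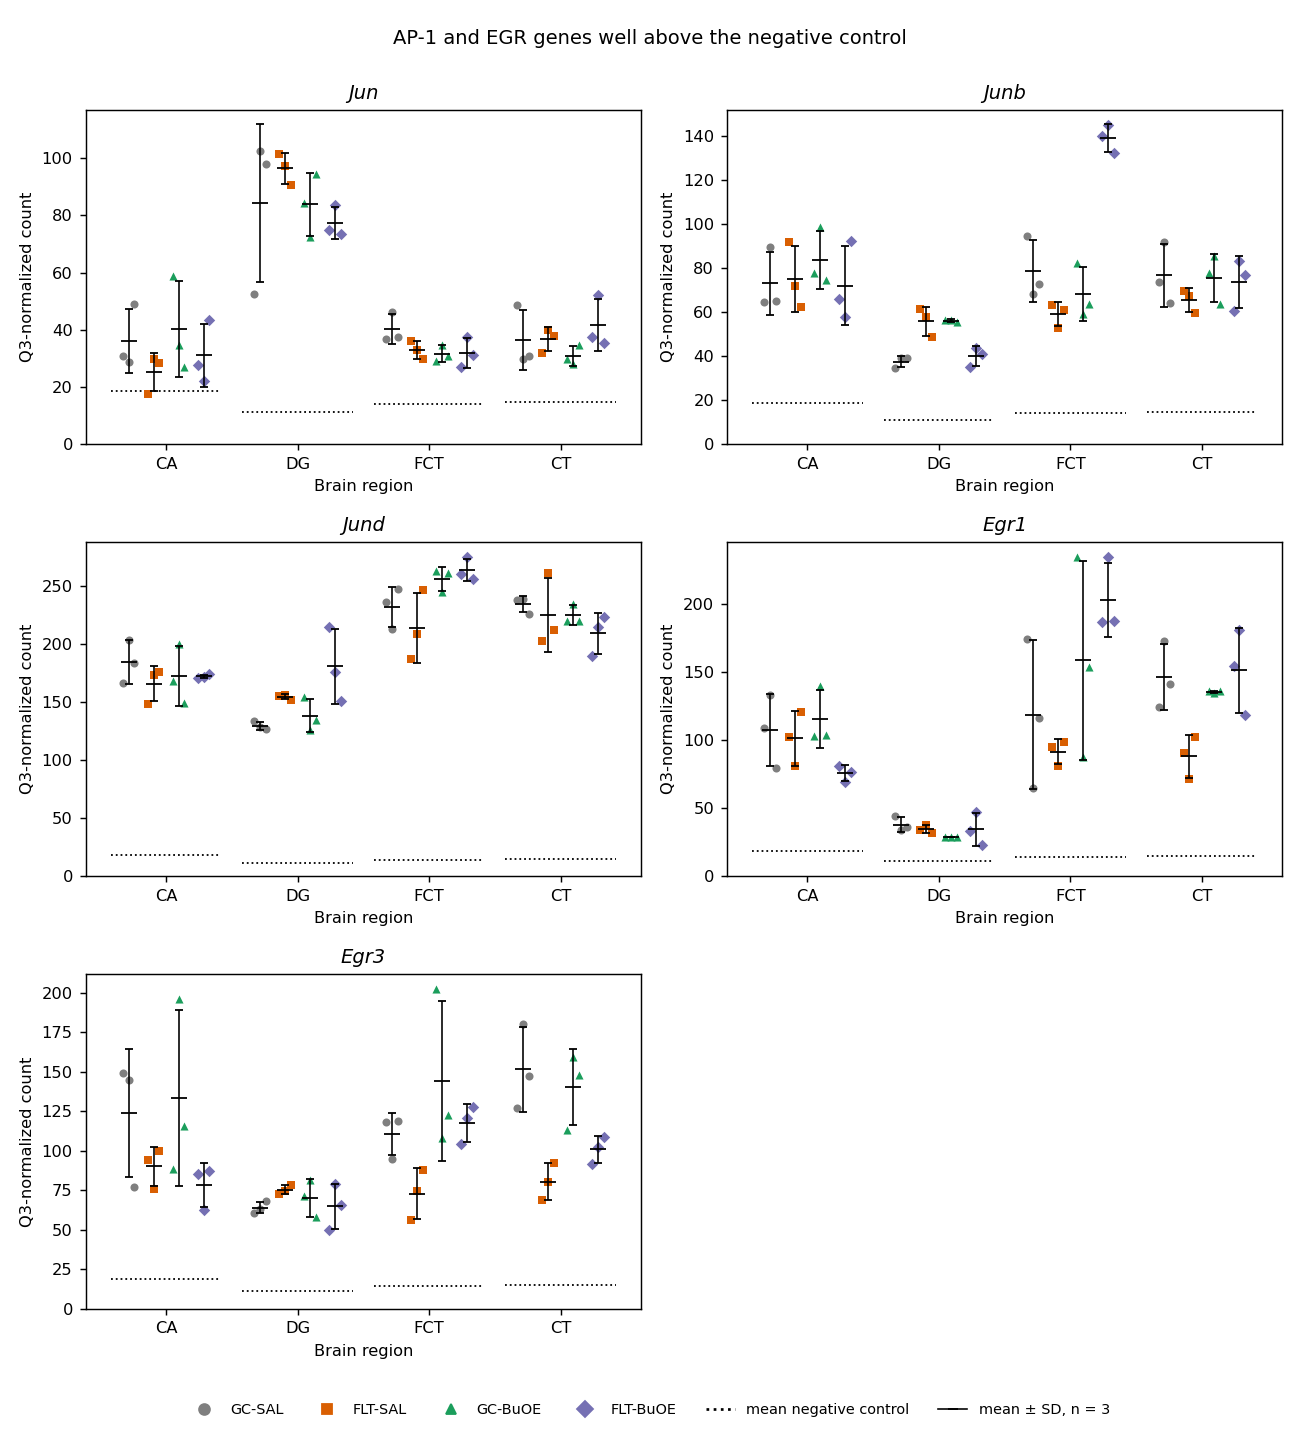
Q3-normalized counts of the 5 better measured genes in every mouse, by region and group (points), with the mean and SD of 3 mice and the mean negative control of the region (dotted). Egr3 in CT lay at 69.1 to 92.4 in FLT-SAL mice and at 127.3 to 180.4 in GC-SAL mice, and Junb in FCT at 132.6 to 145.0 in FLT-BuOE mice and at 52.9 to 94.8 in all the others.

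The second comparison asked what BuOE did in flight, FLT-BuOE against FLT-SAL. It shares the FLT-SAL mice with the first, so the values of both are given side by side only. In FCT Junb rose. It was 63.5, 52.9 and 61.2 in FLT-SAL mice and 140.1, 145.0 and 132.6 in FLT-BuOE mice. The lowest treated mouse stood well above the highest untreated one. The means were 59.2 ± 5.56 and 139.2 ± 6.24 (1.22, SE 0.16, adjusted p = 1.3e-05), and Junb was the first of 15782 genes by p.

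Egr1 rose in the same AOIs. FLT-SAL mice had 94.9, 81.5 and 98.9 and FLT-BuOE mice 187.3, 234.8 and 187.6 (1.13, SE 0.22, adjusted p = 0.03). The call was lost when GC-SAL mouse 3, FLT-BuOE mouse 2 or either of FLT-SAL mice 1 and 2 was left out (adjusted p = 0.055 to 0.17 by limma), with the negative control subtracted (0.12), and by DESeq2 (0.091). Both genes were called of 5 in FCT, 0.0317% of all genes. Egr3 in FCT was 56.0, 74.3 and 88.1 in FLT-SAL mice and 104.3, 121.0 and 127.6 in FLT-BuOE mice (0.70, SE 0.18, adjusted p = 0.14 by limma, 0.047 by DESeq2). With Jund, 4 of the 10 did not overlap in FCT, against 12.5% of all genes.

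In CT Egr1 rose again, from 91.0, 71.5 and 102.6 to 154.9, 181.2 and 118.5 (0.77, SE 0.16, adjusted p = 0.03), the only 1 of the 10 called there (0.0697% of all genes). That call was lost without FLT-BuOE mouse 1 or 2, FLT-SAL mouse 1 or 2 or GC-BuOE mouse 3 (adjusted p = 0.061 to 0.58 by limma), and with the negative control subtracted (0.098). Junb did not follow: FLT-BuOE mice had 60.7, 83.4 and 77.0 in CT against 69.9, 67.5 and 59.5 in FLT-SAL mice (0.15, SE 0.17, adjusted p = 0.97). Egr3 in CT was 100.8 ± 8.52 with BuOE and 80.5 ± 11.6 without (0.33, SE 0.16, adjusted p = 0.87).

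The hippocampus gave no call by limma. In CA 0 of the 10 passed in limma (0.00634% of all genes), 1 in edgeR (0.0507%), and 1 had an unadjusted p under 0.05 (4.96%). In DG 0 passed in limma (0%) and 0 in edgeR (0.038%), and 2 had an unadjusted p under 0.05 (6.2%). In DG Junb was 61.5, 57.7 and 48.6 in FLT-SAL mice and 35.0, 43.8 and 41.1 in FLT-BuOE mice (-0.47, SE 0.18, adjusted p = 0.66), the sign opposite to that in FCT. The difference of the BuOE effect among the 4 regions passed the test for Junb (adjusted p = 1.9e-06) and for Egr1 (adjusted p = 0.0003), 2 of the 10, against 0.127% of all genes. Egr4 in CA was called by edgeR alone (adjusted p = 0.049): FLT-BuOE mice had 128.4, 28.2 and 34.8 and FLT-SAL mice 35.3, 28.7 and 42.3, so the mean followed 1 AOI. From CA to CT in the same order, the 10 genes had median differences of 0.27, -0.05, 0.20 and 0.16, and all genes medians of -0.05, -0.02, -0.07 and -0.02. On mouse means 0 of the 10 were called by limma (0.0317% of all genes), with 2 at an unadjusted p under 0.05 (7.9%).

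**Figure D3:**
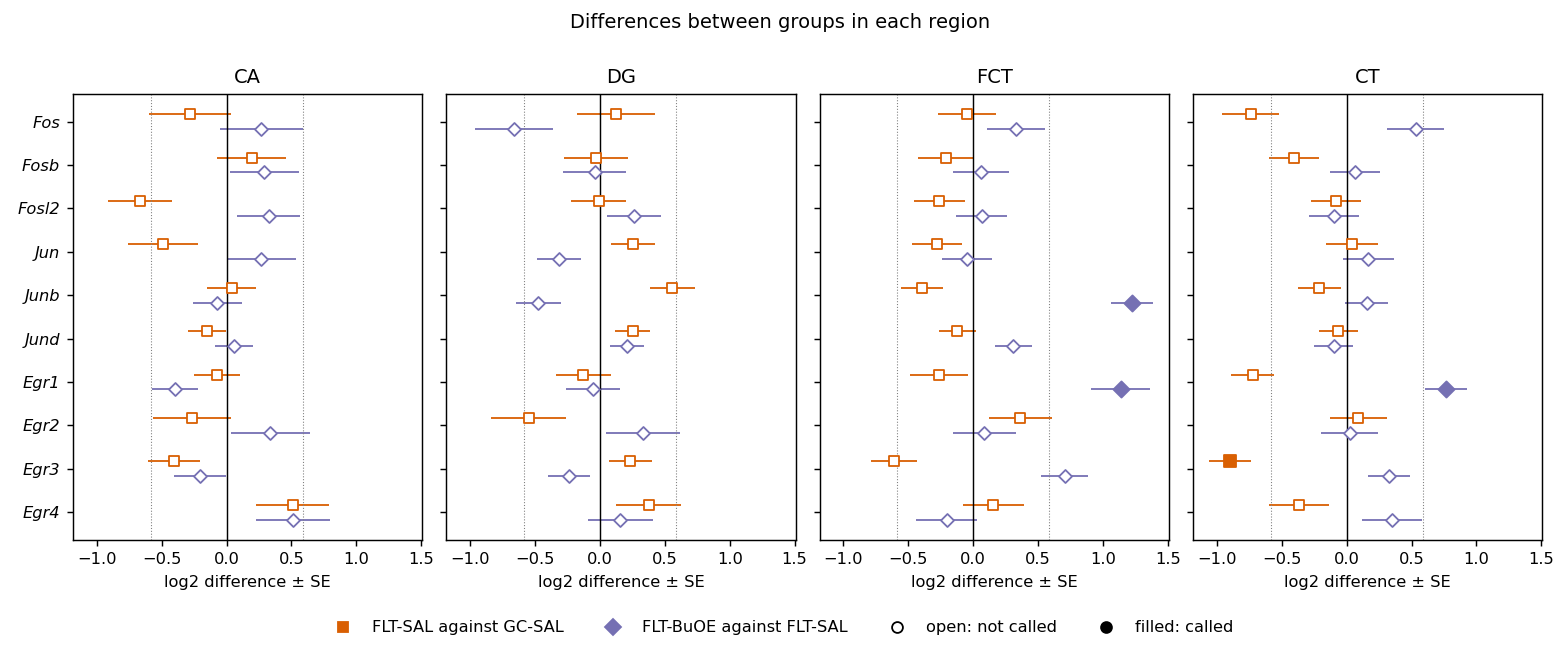
Differences on the log2 scale with their SE for each gene and region, FLT-SAL against GC-SAL (squares) and FLT-BuOE against FLT-SAL (diamonds), which share the FLT-SAL mice. Filled symbols were called, that is Egr3 in CT for flight (-0.90) and Junb in FCT (1.22) and Egr1 in FCT (1.13) and CT (0.77) for BuOE in flight, and dotted lines mark the fold threshold.

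Against the ground mice on BuOE, Junb in FCT stood out once more. GC-BuOE mice had 82.2, 59.3 and 63.7, all below the FLT-BuOE mice (1.03, SE 0.16, adjusted p = 0.00079), and Junb was 1 of 3 genes called in FCT, 0.019% of all genes. The flight difference on saline minus that on BuOE was -1.42 (SE 0.23, adjusted p = 0.0025). This interaction passed for 1 of the 10 genes and for 1 gene of 15782 in FCT (0.00634%). In DG the same interaction of Junb was 1.05 (SE 0.25, adjusted p = 0.21), with GC-BuOE mice at 56.7, 56.3 and 55.6. None of the 10 passed the interaction in CA, DG or CT by limma (0.00634%, 0% and 0.019% of all genes) or edgeR (0.0254%, 0.0444% and 0.019%), with 2, 1 and 2 at an unadjusted p under 0.05 (5.39%, 6.39% and 4.81%).

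Elsewhere FLT-BuOE and GC-BuOE gave 0 calls of the 10 by limma in CA, DG and CT, where 0.0444%, 0.108% and 0.0127% of all genes were called, with 3, 2 and 3 at an unadjusted p under 0.05 (7.52%, 8.24% and 6.65%). edgeR called 2 of the 10 in CA (0.127% of all genes), Egr3 and Egr4, and 0 in DG (0.12%) and CT (0.0317%). Egr3 there was 88.5, 196.1 and 115.7 in GC-BuOE mice and 85.6, 62.3 and 87.0 in FLT-BuOE mice (-0.70, SE 0.20, adjusted p = 0.25 by limma and 0.022 by edgeR). The ground values ranged widely and the groups did not overlap. In CT Egr3 was not called, at 113.2, 159.4 and 147.8 in GC-BuOE mice and 91.7, 102.3 and 108.5 in FLT-BuOE mice. These groups did not overlap either. In CA 2 and in CT 3 of the 10 did not overlap, against 11.3% and 11% of all genes. Egr4 in CA was 35.8, 26.7 and 31.4 in GC-BuOE mice and 128.4, 28.2 and 34.8 in FLT-BuOE mice, so its mean followed 1 AOI. Averaged over regions, Egr3 was lower in flight on BuOE by -0.38 (SE 0.10, adjusted p = 0.081), beside -0.42 on saline.

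On the ground BuOE gave no call among the 10 in any region, by limma, edgeR or DESeq2. Only Junb in DG had an unadjusted p under 0.05 there (37.5 ± 2.63 in GC-SAL and 56.2 ± 0.56 in GC-BuOE mice, 0.57, SE 0.18, adjusted p = 0.75). Of all genes, limma called 0% in CA, DG and CT and 0.00634% in FCT, edgeR 0.038%, 0.0317%, 0% and 0.0507%, and 5.6%, 5.21%, 3.78% and 5.63% had an unadjusted p under 0.05. Egr1 in FCT had a wide spread in both ground groups, at 174.8, 65.1 and 116.5 in GC-SAL mice and 234.7, 88.2 and 153.7 in GC-BuOE mice. The lowest value of each group was below (65.1) or within (88.2) the range of the FLT-SAL mice. The highest was below (174.8) or within (234.7) the range of the FLT-BuOE mice. Egr1 did not differ between FLT-BuOE and GC-BuOE beyond this spread (0.45, SE 0.22, adjusted p = 0.69).

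Markers of other cells moved in the same cortical AOIs. The summed level of 6 oligodendrocyte markers in CT was 667 to 727 in GC-SAL, 1196 to 1695 in FLT-SAL, 764 to 941 in GC-BuOE and 607 to 744 in FLT-BuOE mice. None of the 6 was at 0 in any AOI. In CT 3 of the 6 rose in FLT-SAL against GC-SAL (among them Mobp by 1.33 and Cnp by 0.87 on the log2 scale), and 3 of the 6, Mobp and Mbp among them, fell in FLT-BuOE against FLT-SAL. In FCT the sum was 938 to 1111, 1117 to 1804, 485 to 911 and 736 to 972 in the same order of groups, with 0 of 6 called by limma and 1 by edgeR in either comparison (4 and 5 of 6 at an unadjusted p under 0.05). Of 6 astrocyte, 6 microglial and 7 vessel and meningeal markers, 0 were called by limma or edgeR in any region in these comparisons, with 0 to 2 of a list at an unadjusted p under 0.05. The summed level of 6 cortical excitatory neuron markers in FCT was 260 to 306 in GC-SAL and 269 to 293 in FLT-SAL mice. On BuOE it was 316 to 339 in GC-BuOE and 330 to 400.2 in FLT-BuOE mice. In CT it was 308 to 353, 282 to 319, 316 to 356 and 360 to 467 in the same order of groups. There Lamp5 alone of the 6 was called higher in FLT-BuOE than in FLT-SAL mice. The summed level of 5 GABAergic interneuron markers was 214 to 241 in GC-SAL, 258 to 322 in FLT-SAL and 204 to 317 in FLT-BuOE mice in FCT, and 210 to 373, 301 to 376 and 210 to 266 in CT. It was also higher in FLT-SAL than in GC-SAL mice without overlap in CA (184 to 206 against 156 to 165) and DG (187 to 244 against 159 to 179), while 0 of the 5 were called by limma and 1 by edgeR, in DG for flight. The summed astrocyte level was higher in FLT-SAL than in GC-SAL mice without overlap in FCT (286 to 324 against 253 to 258), DG (268 to 297 against 252 to 258) and CA (290 to 320 against 259 to 286), and overlapped in CT (327 to 377 and 305 to 335). The part of these cells in the Egr1, Egr3 and Junb differences was not tested. In DG the granule marker C1ql2, alone of 6, was called higher in FLT-SAL than in GC-SAL mice (0.60, adjusted p = 0.038). In CA the pyramidal marker Wfs1 was, alone of 5 (0.82, adjusted p = 0.024). The summed levels of these lists did not overlap either. They were 412 to 445 in FLT-SAL against 320 to 386 in GC-SAL mice for granule markers in DG. For pyramidal markers in CA they were 541 to 586 against 391 to 450.

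No gene of 10 measured AP-1 partners (such as Atf2, Atf4 and the Maf genes), the 2 EGR corepressors, 25 measured genes of the SRF, ERK, JNK and CREB signals or 6 MAP kinase phosphatases was called by limma in any region for flight on saline or for BuOE in flight. Of all genes, limma called 0% to 0.266% in these regions and comparisons. edgeR called 1 AP-1 partner for BuOE in flight in FCT (0.171% of all genes) and 0 others. At an unadjusted p under 0.05 a region and comparison held 0 to 2 of the 10 partners, 0 to 1 of the 2 corepressors, 0 to 6 of the 25 signal genes and 0 to 2 of the 6 phosphatases. Of all genes it held 4.96% to 7.65%. For flight on saline the 25 signal genes had medians of 0.12, 0.00, 0.03 and 0.01, from CA to CT in the order above. Between DG and CA, 5 of the 25 were called higher in DG, among them the ERK kinase gene Mapk3 (0.83, SE 0.09), against 2.41% of all genes. Dusp5, a nuclear phosphatase of ERK, was called lower (-0.82, SE 0.12), and so was the AP-1 partner Atf4 (-0.63, SE 0.09). Of all genes 1.69% were called lower.

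Among 24 other immediate early genes, the synaptic gene Arc fell most often. Arc was 304.5 ± 111.5 in GC-SAL, 72.4 ± 14.8 in FLT-SAL and 246.7 ± 19.7 in FLT-BuOE mice in FCT, with differences of -2.00 for flight (SE 0.23, adjusted p = 6.9e-07) and 1.77 for BuOE in flight (SE 0.23, adjusted p = 1.3e-05). It also fell in flight on saline in CA (-0.71) and CT (-1.56). Nr4a1, an orphan nuclear receptor, fell in CT (-0.84, SE 0.16, adjusted p = 0.0063). Sgk1, a kinase gene that glucocorticoids also induce, rose in FCT (0.93) and CT (1.18). The other 21 of the 24 were not called by limma in any region for flight on saline or for BuOE in flight. Of 10 reported AP-1 and EGR targets, 1 was called, the secretogranin gene Scg2, lower in FLT-SAL in FCT (48.6 ± 11.2 against 95.2 ± 8.18, -0.98, adjusted p = 0.0033).

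The genes most like each member were found by Pearson's r over the 48 AOIs after the mean of each region was taken out, for the 7 genes at 2 or more times the negative control. The AOIs share mice, slides and depth, so r is a description. Egr3 was closest to Arc (r = 0.74), Ptprn (0.72) and Gpr162 (0.68), and Egr1 to Nr4a1 (0.72), Arc (0.65) and R3hdm1 (0.65). Junb was closest to Sub1 (0.52), Egr1 (0.52) and Nrgn (0.51), and Jund to Ssr4 (0.61), Pdxp (0.58) and Mcrip1 (0.53). Jun was closest to H4c8 (0.62), Olfr1217 (0.55) and Msl1 (0.55), Fosb to Glrx5 (0.61), Tacc1 (0.57) and Manf (0.57), and Fosl2 to Gm13272 (0.57), Usp17la (0.55) and Glb1l3 (0.55). Among the 45 pairs of the 10 genes, r ran from -0.16 to 0.64 with a median of 0.05. The highest were Egr1 with Egr3 (0.64), Egr1 with Junb (0.52) and Junb with Egr3 (0.42), and these stayed at 0.57, 0.45 and 0.45 when the group means were taken out too.

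**Figure D4:**
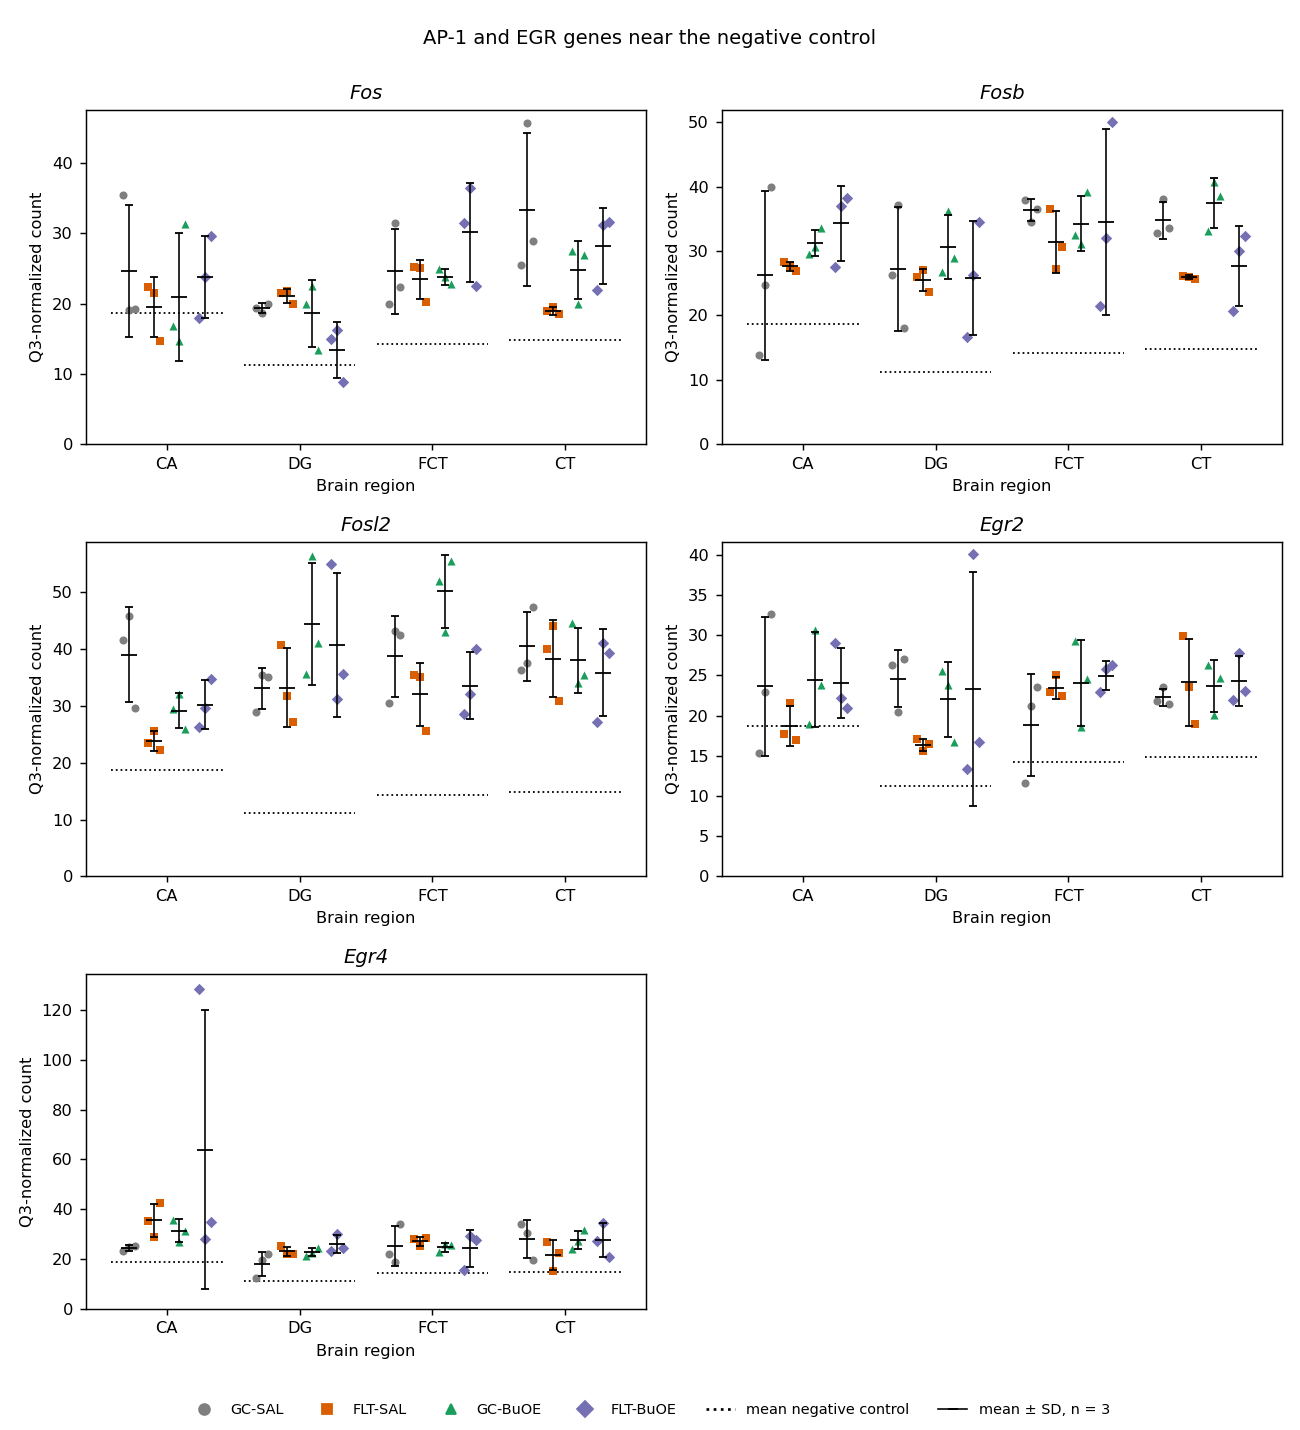
Q3-normalized counts of the 5 genes near the negative control (dotted) in every mouse, by region and group, with the mean and SD of 3 mice. None was called between groups by limma, Fos in CT lay at 18.5 to 19.5 in FLT-SAL mice and 25.5 to 45.7 in GC-SAL mice, and the single high Egr4 value in CA (128.4) was FLT-BuOE mouse 1.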

How the data were processed

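The deposited Q3-normalized tables of 4 regions hold signal values of 15782 genes in 48 AOIs, 1 per mouse and region. The authors made them with GeoMx_NGS_Pipeline 2.3.4 (per the file headers) and upper-quartile scaling. Deposited probe counts were matched to 15777 genes, all 10 members included, where the values divided by the AOI's factor equalled them (99.98% whole within 0.02). Tables of the authors' own comparisons were not used. Q3 values were fitted as log2(value + 1) with limma 3.58.1 with an intensity trend in R 4.3.3, each region with its 4 groups, without a filter on low values. Region contrasts used all AOIs with mouse as a block. Alternatives were edgeR 4.0.16 and DESeq2 1.42.0 on counts, pseudocounts 5 and 0.5, a filter, negative-control subtraction, other designs and leaving out each mouse. The fits were tested on simulated data. Groups came from the sample titles. Replicates are separate mice, 3 a group. Named genes were all members, called genes of the other lists (at most 8 a list) and the 3 genes most like each member. The members and lists were chosen with earlier results of these data known.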

Additional observations from a re-analysis of the deposited data

Results flagged for a closer look

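Junb stood out for a flight difference that was not the same on saline and on BuOE: the interaction in FCT was -1.42 on the log2 scale, and all 3 FLT-BuOE mice lay above the 9 others. The effect of BuOE in flight also differed among the 4 regions by an F test, for Junb (adjusted p = 1.9e-06) and for Egr1 (adjusted p = 3e-04). For CA, DG, FCT and CT the differences were -0.07, -0.47, 1.22 and 0.15 for Junb and -0.40, -0.05, 1.13 and 0.77 for Egr1. Each group lay on 1 slide, so a slide effect that varies by region cannot be told apart from these differences.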

How the results depend on the processing

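Replicate numbers did not pair the mice: in 0 of 20 comparisons did every same-numbered pair correlate above 0.1 (range -0.18 to 0.17). With the replicate block, 2 genes were called for FLT-SAL against GC-SAL over the 4 regions (1 without it). That count was 2 by DESeq2 and 0 to 2 when each mouse was left out (0 without FLT-SAL mouse 1). By edgeR it was 3, all in CT, where edgeR called 0.235% of all genes. For FLT-BuOE against FLT-SAL (3 called), subtracting the negative control left 1, and leaving out each mouse gave 1 to 4: Egr1 in FCT or CT was lost without FLT-BuOE mouse 1 or 2, FLT-SAL mouse 1 or 2, GC-SAL mouse 3 or GC-BuOE mouse 3, with adjusted p up to 0.17 in FCT and 0.58 in CT. The cause was not tested. For FLT-BuOE against GC-BuOE (1 called) edgeR gave 3. Of these 2 were in CA (0.127% of all genes), where the Egr4 mean followed 1 AOI, and 1 in FCT (0.0254%). Without a fold threshold 1 was called on mouse means for flight on saline (0 with it). The region tests then gave 7 for DG against CA (4 with it) and 7 for hippocampus against cortex (1 with it). The share of all genes under that rule was not computed. At an unadjusted p under 0.05 there were 8 of the 10 for DG against CA (35.5% of all genes) and 8 for hippocampus against cortex (32.6%). With the fold threshold, hippocampus against cortex gave 2 with the negative control subtracted and 1 to 2 without each mouse. For region by flight on saline (0), edgeR gave 1 and leaving out each mouse 0 to 1. Junb in FCT kept its calls under every alternative run, and no named difference reversed. Few counts limit Fos, Fosb, Fosl2, Egr2, Egr4 and, outside DG, Jun. With 3 mice a group an exact permutation p can be no less than 0.1.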
